A study of Homo sapiens with 40 samples.

Results

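Messenger RNAs of 6 genes are described here, those of the poly(A)-binding proteins PABPC1, PABPC4 and PABPN1 and of the poly(A)-binding protein-interacting proteins PAIP1, PAIP2 and PAIP2B. They were taken by gene symbol from the 55765 symbols that each library counts, and the set was chosen by the difference of PABPC1 between the DDX6 immunoprecipitate and total RNA, the largest of any called gene averaging 10 CPM or more (CPM, counts scaled to a library total of 1000000). All 40 libraries are RNA-Seq of HEK293 cells, an established human embryonic kidney line, in 12 groups. For RNA immunoprecipitation (RIP) the cells received no siRNA, and poly(A) RNA was sequenced from total RNA and from immunoprecipitates (IPs) of endogenous eIF4A1, eIF4A2 and DDX6, with 3 libraries each. In the gradient experiment cells were transfected with control siRNA or CNOT1 siRNA, and input RNA, pooled subpolysomal fractions and pooled polysomal fractions were sequenced, with 4 libraries for each siRNA and each kind of RNA. In the TNRC6 experiment total RNA was sequenced after control siRNA or a mixture of siRNAs against TNRC6A and TNRC6B, with 2 libraries each. CNOT1 and the TNRC6 proteins were lowered by transient siRNA and not deleted, so the treated cells kept some of each mRNA.

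The cytoplasmic proteins PABPC1 and PABPC4 coat the poly(A) tail of mRNAs in the cytoplasm and bind the initiation factor eIF4G, which brings the ends of an mRNA together and favours translation. PABPN1 is the nuclear member of the set, which stimulates poly(A) polymerase and controls tail length. PAIP1 binds PABPC1 and stimulates translation, while PAIP2 and PAIP2B compete for PABPC1 and reduce its hold on poly(A). DDX6 is a DEAD-box helicase that joins the Ccr4-Not deadenylase complex to decapping and translational repression, eIF4A1 and eIF4A2 are helicases of the same family, and CNOT1 is the scaffold of Ccr4-Not. The PABPC1 mRNA is a textbook terminal oligopyrimidine (TOP) mRNA, whose first bases are a C followed by pyrimidines, and its 5′UTR holds adenine-rich runs to which PABPC1 protein can bind.

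The annotated mRNA starts are given because they separate the cytoplasmic binding proteins from the other members, with the pyrimidine run at the first base in capitals. Sequences are from GRCh37, the build of the alignments, at the first base of the canonical GENCODE transcript, and the start sites used in these cells were not measured. The start of PABPN1 is its whole 5′UTR of 13 nt.
PABPC4, chr1:40042433-40042462, minus strand: CTCTCTCCgccccgggtcgctgccgcctcc
PABPN1, chr14:23790666-23790678, plus strand: agtctgagcggcg
PAIP1, chr5:43557150-43557179, minus strand: ggaaagccgagggtagccgagcggggcggg
PAIP2, chr5:138677543-138677572, plus strand: gtttgtttggactggagaagggaggcggcg
PAIP2B, chr2:71454204-71454233, minus strand: agtgtgcagtaagagataacctggcaagtg

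The PABPC4 mRNA started with 8 pyrimidines. The PABPC1 mRNA, whose sequence is not printed, started with 12. A C followed by at least 4 more pyrimidines was found at the start of 4.76% of 18917 coding mRNAs, and at the start of none of the other 4 members. Both cytoplasmic members also had a long adenine run in the 5′UTR, shown for PABPC4 with its adenines in capitals.
PABPC4 adenine run, chr1:40042336-40042365, minus strand: aaaatcctgAAAAAAAAAAAggaaaagaaa

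That run held 11 adenines in PABPC4 and 8 in PABPC1. Only 0.39% and 1.21% of mRNAs had a longest 5′UTR adenine run at least as long, against a median of 3. The 5′UTRs were 839 nt in PABPC4 and 505 nt in PABPC1, where the median mRNA had 136 nt, and their 3′UTRs of 320 and 445 nt were below the median of 1078 nt. At the other end of the set, PAIP2B had a 3′UTR of 5741 nt behind a coding sequence of 372 nt, and PAIP2 a 3′UTR of 919 nt behind 384 nt. The 3′UTR of PAIP1 held 3 matches to the Pumilio motif TGTANATA, searched on the mRNA strand only, shown with the match in capitals because it was the only member with any. The last pair of windows share bases.
PAIP1 first match, chr5:43527271-43527300, minus strand: aacttaaaatgTGTATATAtatataatagt
PAIP1 next match, chr5:43526512-43526541, minus strand: aaaggattgctTGTAAATAtgcatgtaaat
PAIP1 last match, chr5:43526500-43526529, minus strand: gtaaatatgcaTGTAAATAgttctgttaat

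At least 1 match was found in 25.87% of mRNAs and at least 3 in 3.29%. These matches are descriptions of the annotated sequence, and binding at them was not measured.

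The genes lie, on GRCh37, at chr8:101698044-101735037 (PABPC1, minus strand), chr1:40026381-40042462 (PABPC4, minus strand), chr14:23790666-23795372 (PABPN1, plus strand), chr5:43526369-43557860 (PAIP1, minus strand), chr5:138677276-138705409 (PAIP2, plus strand) and chr2:71409868-71454233 (PAIP2B, minus strand). Counts are reads in exons of the whole gene. PABPC1 has processed pseudogenes, and the 13 pseudogene rows together held at most 40 counts in any library, or 0.0929% of the PABPC1 counts beside them. PABPC3, a near-identical intronless copy, held at most 28. The readthrough gene BCL2L2-PABPN1 covers 39.3% of the exon bases of PABPN1 on the same strand and held 2 to 39 counts, so reads in the shared exons may be missing from the PABPN1 row. Antisense genes overlap 10.9% of the exon bases of PABPC4 and 21.0% of those of PAIP2, and the strand option of the counting is not given in the sources used here. Nor is its handling of reads that align to several places, which bears on the pseudogene rows and on the level of PABPC1.

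Libraries held 15353317 to 46018900 counts. The HEK293 neurofilament and vimentin transcripts NEFM (197 to 6045 CPM) and VIM (105 to 676 CPM) were present in every library, the keratins KRT8 and KRT18 were at 2.66 to 11.7 and 2.72 to 51.0 CPM, PTPRC of blood cells and ALB of liver did not exceed 0.0775 and 0.400 CPM, and the fibroblast transcript COL1A1 was at 1.14 to 18.1 CPM. CNOT1 was at 628 to 711 CPM in input RNA with control siRNA and at 36.8 to 41.4 CPM with CNOT1 siRNA. In polysomal RNA the libraries labelled replicate 3 went against their labels, at 28.3 CPM with control siRNA, where the other 3 had 469.9 to 501 CPM, and at 631 CPM with CNOT1 siRNA, where the other 3 had 24.01 to 31.65 CPM. Both were left out of the tests below, and values with them are given beside the polysomal results. TNRC6A was at 178 to 189 CPM with control siRNA and at 40.5 to 64.7 CPM with TNRC6A/B siRNA, and TNRC6B at 67.6 to 73.1 and 17.7 to 26.3 CPM.

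Levels of the members spanned a wide range. Per kilobase of the canonical mRNA, RIP total RNA held 436 ± 31.9 CPM of PABPC1 (SD, n = 3), 130.4 ± 14.3 of PABPC4, 83.8 ± 5.33 of PAIP2, 41.7 ± 8.09 of PABPN1, 34.1 ± 0.493 of PAIP1 and 4.60 ± 0.542 of PAIP2B. Neighbours in this order were separated by more than their SDs, apart from PABPN1 and PAIP1, whose ranges of mean ± SD overlapped. PABPC1 alone took 0.104 to 0.117% of the counts of a total RNA library, where its rank among all symbols was between 58 and 88. In each DDX6 IP library it took 0.620 to 0.744% and ranked 2. All levels are relative to the total of each library, and in these bulk libraries fewer cells with an mRNA and less of it per cell cannot be told apart.

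To ask how far these mRNAs were recovered with DDX6, the DDX6 IP was set beside total RNA. This contrast chose PABPC1, so it is given as a description with no test. PABPC1 was at 1334, 1253 and 1152 CPM in the total RNA libraries and at 7443, 6670.2 and 6443 CPM in the DDX6 IP libraries of the same numbers. Every DDX6 IP library stood above every total RNA library, by 5.32 to 5.59 times within a number, and the log2 difference was 2.46 (SE 0.17). Numbers are those of the titles, and the total RNA library titled replicate 3 is described as replicate 2 in its other label. Among called genes whose mean reached 10 CPM, the next were SNORD17 at 2.25 and AC013394.2 at 2.24. Of all 17474 genes, 46.0% were called in either direction at a false discovery rate (FDR) below 0.05, and 99.91% had a log2 difference below that of PABPC1.

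The other members lay closer to the bulk of genes in the DDX6 IP. PABPN1 stood at 81.1, 86.6 and 58.9 CPM in total RNA and at 200.4, 229 and 161 CPM in the DDX6 IP, a log2 difference of 1.38 (SE 0.22). PAIP1, the stimulator of translation, differed by 0.71 (SE 0.20), from 93.7, 94.4 and 96.3 to 149, 181 and 133 CPM. For both, the lowest DDX6 IP library was above the highest total RNA library. PABPC4, the closest relative of PABPC1 in the set, was at 412, 454 and 364 CPM and then at 549, 585 and 526 CPM, a log2 difference of only 0.43 (SE 0.14). The inhibitor PAIP2 showed a like difference of 0.46 (SE 0.20), from 126, 127 and 113 CPM to 155, 201 and 146 CPM, and neither it nor PABPC4 overlapped between the groups. PAIP2B, at 26.7, 27.3 and 32.9 CPM in total RNA and 30.4, 25.1 and 33.5 CPM in the DDX6 IP, overlapped between the groups (log2 difference 0.03, SE 0.16).

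**Figure D1:**
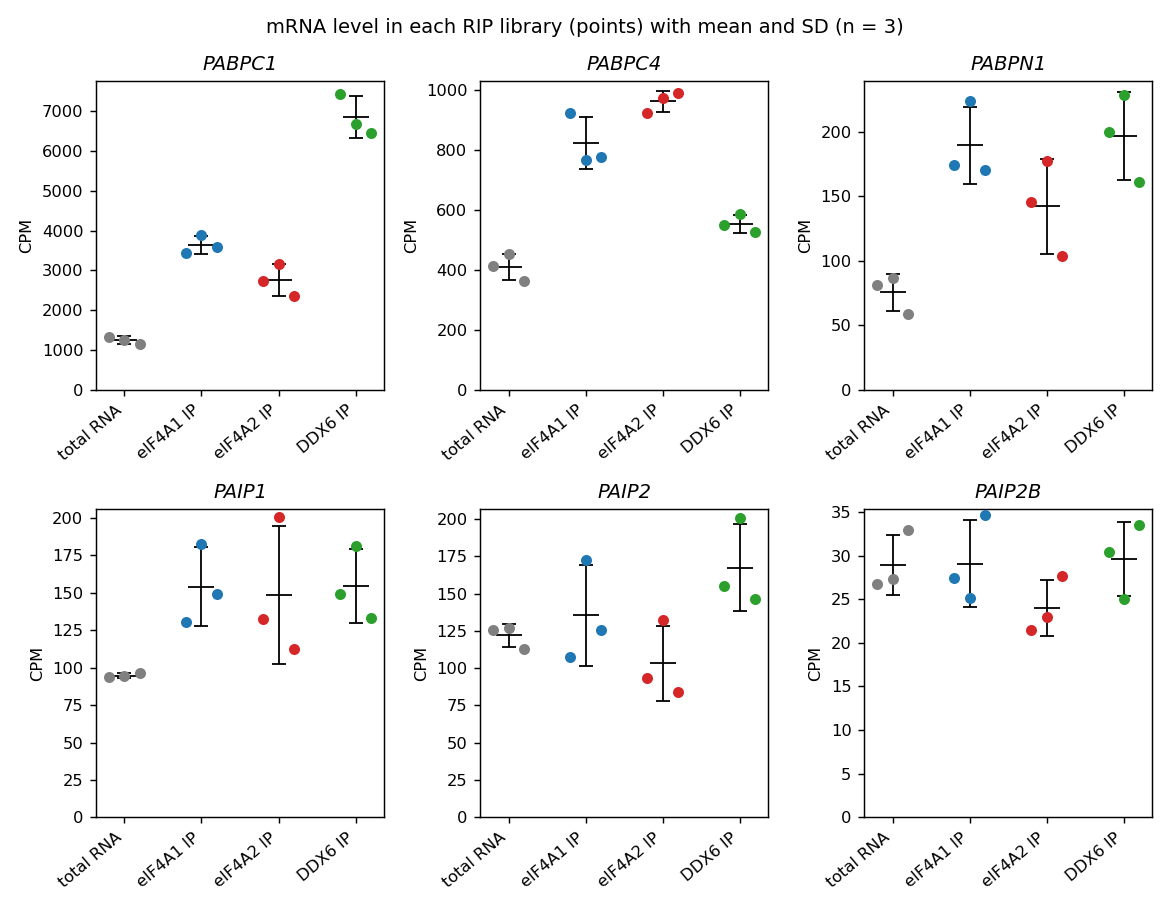
Level of each mRNA in CPM (y axis, from 0, a scale of its own per panel) in the 12 RIP libraries by group (x axis), with points for libraries and black marks for mean and SD (n = 3). PABPC1 is highest in the DDX6 IP (6443 to 7443 CPM), whereas PABPC4 is highest in the eIF4A2 IP (924 to 992 CPM) and the PAIP2B groups lie on top of each other.

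To ask which of these mRNAs were recovered with eIF4A1, that IP was compared with total RNA. PABPC4, PABPN1 and PAIP1 rose, which is 3 of the 5 members tested, where 52.6% of all genes were called and 26.1% were called higher. PAIP2 and PAIP2B did not pass. PABPC4 was at 926, 767 and 779 CPM in the eIF4A1 IP, a log2 change of 1.01 (SE 0.14, edgeR FDR 7.08e-05). PABPN1 reached 175, 224 and 170.4 CPM (log2 change 1.33, SE 0.22, FDR 0.000226). PAIP1 reached 131, 183 and 149 CPM (log2 change 0.70, SE 0.20, FDR 0.0108). In each of these genes the lowest IP library was above the highest total RNA library. Without eIF4A1 IP replicate 2 the PAIP1 change was 0.56 and no longer called (FDR 0.0561). PAIP2 was at 108, 173 and 126 CPM and overlapped total RNA (log2 change 0.15, SE 0.20, FDR 0.558), as did PAIP2B at 27.4, 25.2 and 34.7 CPM (0.01, SE 0.16, FDR 0.976). PABPC1, which was chosen with the same total RNA libraries, was not tested. It was at 3447, 3896 and 3574 CPM, a log2 difference of 1.55, and 96.97% of genes lay below it.

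The same members rose in the eIF4A2 IP, PABPC4, PABPN1 and PAIP1, where 50.3% of all genes were called and 24.5% were called higher. PABPC4 was higher than in any other group of the RIP experiment by mean, at 924, 975 and 992 CPM, a log2 change of 1.23 against total RNA (SE 0.14, FDR 1.44e-05). PABPN1 was at 146, 177 and 104 CPM (0.91, SE 0.22, FDR 0.00316) and PAIP1 at 133, 201 and 113 CPM (0.65, SE 0.20, FDR 0.0166). The PAIP1 value rested on single libraries, since the change was 0.37 without eIF4A2 IP replicate 2 (FDR 0.107) and 0.64 without total RNA replicate 1 (FDR 0.05003, just above the threshold). PAIP2 was at 93.2, 132 and 84.3 CPM, with 1 library above all of total RNA and the others below (log2 change -0.24, SE 0.21, FDR 0.345). PAIP2B, at 21.4, 22.9 and 27.6 CPM, was below total RNA of the same number in 3 of 3 libraries, by factors of 0.803 to 0.841. Its change of -0.27 (SE 0.16) missed the threshold (FDR 0.190) and was called when the replicate number, which pairs the RIP libraries, was a block (FDR 0.0280). That call and the factors rest on the title of the total RNA library whose labels disagree, and without regard to number the groups overlapped. PABPC1, again not tested, was at 2732, 3159.9 and 2361 CPM, a log2 difference of 1.14.

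The 3 IPs were then compared with one another. Between the eIF4A2 and eIF4A1 IPs 0 of 6 members were called by edgeR, where 1.06% of all genes were called and 3116 genes had an unadjusted p below 0.05, and DESeq2 also called 0 of the 6. The PABPC1 log2 change was -0.40 (SE 0.16, FDR 0.228), and every eIF4A2 IP library (2361 to 3159.9 CPM) was below every eIF4A1 IP library (3447 to 3896 CPM). With the replicate block, PABPN1 (log2 change -0.44, FDR 0.0180) and PAIP2 (-0.39, FDR 0.0441) were called lower in the eIF4A2 IP, where each was lower in 3 of 3 numbered pairs. Without the block their changes were -0.41 (FDR 0.326) and -0.39 (FDR 0.334).

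When the eIF4A2 and DDX6 IPs were compared, PABPC4 was higher in the eIF4A2 IP (log2 change 0.80, SE 0.14, edgeR FDR 0.00350). Every eIF4A2 IP library was above every DDX6 IP library. PABPC1 was chosen by its level in the same DDX6 IP libraries, so its log2 difference of -1.32 (SE 0.17) is a description with no test. PAIP2 was called lower in the eIF4A2 IP (-0.70, SE 0.21, FDR 0.0301), so that 2 of the 5 tested members passed, where 21.1% of all genes did. That PAIP2 call was lost without eIF4A2 IP replicate 1 (-0.63, FDR 0.110) or 3 (-0.57, FDR 0.0992), without DDX6 IP replicate 2 (-0.55, FDR 0.126) and when only the compared libraries were fitted (-0.71, FDR 0.0513). The replicate block added PABPN1 (-0.49, FDR 0.00337) and PAIP2B (-0.30, FDR 0.0252) to the calls. PAIP1 was at a log2 change of -0.06 (SE 0.20, FDR 0.868).

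With DDX6 set against eIF4A1, 0 of the 5 tested members were called by edgeR, as only 0.0916% of all genes were, with 2438 genes at an unadjusted p below 0.05. PABPC4 was lower in the DDX6 IP without overlap, at a log2 change of -0.57 (SE 0.14, FDR 0.148), and this difference was called with the replicate block (FDR 0.0153) and by DESeq2 (-0.56, FDR 0.00201). PABPC1, chosen on the same DDX6 IP libraries and so not tested, was higher by 0.91 (SE 0.16).

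To ask how these mRNAs differed between the gradient pools, polysomal RNA was compared with subpolysomal RNA of cells given control siRNA. Each library is scaled to its own total, so the ratio of the pools does not give the share of an mRNA in either. Of the 6 members 5 were called, where 72.1% of all genes were, 33.7% higher and 38.4% lower. Both cytoplasmic binding proteins and PABPN1 were lower in polysomal RNA, PAIP1 and PAIP2 were higher, and PAIP2B (log2 change 0.03, SE 0.12, FDR 0.833) did not pass.

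PABPC1 had the largest contrast of the set. It stood at 7034, 10488, 4669 and 7112 CPM in the subpolysomal libraries and at 575, 535 and 601 CPM in the polysomal libraries, so that polysomal RNA was 12.7-fold lower (log2 change -3.67, SE 0.24, FDR 3.49e-12). The lowest subpolysomal library was far above all polysomal ones, and 1.8% of the 17115 genes tested had a lower value. Input RNA lay between them, at 1263, 1196, 1156 and 1242 CPM.

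PABPC4 showed the same order with a smaller step. It was at 589, 759, 484 and 634 CPM in subpolysomal RNA, at 353, 342 and 339 CPM in polysomal RNA and at 451, 423, 377 and 398 CPM in input. The log2 change was -0.83 (SE 0.13, FDR 4.92e-06), or 1.77-fold, and the groups did not overlap. PABPN1, at 109, 115, 125 and 139.8 CPM and then 96.5, 101 and 87.4 CPM, changed by -0.35 (SE 0.12, FDR 0.0111). This PABPN1 call was lost without control siRNA polysomal replicate 4 (-0.27, FDR 0.0781) and with no filter on low counts (-0.19, FDR 0.283).

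PAIP2, an inhibitor of PABPC1, was ordered the other way. Subpolysomal libraries held 44.2, 49.5, 42.2 and 40.1 CPM, input 109, 116, 109 and 114 CPM and polysomal libraries 149.9, 165 and 146 CPM, with no overlap between any of them. The polysomal level was 3.52-fold higher (log2 change 1.82, SE 0.11, FDR 6.62e-13), and 97.19% of genes had a lower value. PAIP1 rose by 0.58 (SE 0.14, FDR 0.000945), from 80.9, 108, 66.7 and 85.4 to 117, 137 and 125 CPM. PAIP2B was at 28.4, 29.7, 21.5 and 23.2 CPM in subpolysomal RNA and at 25.7, 28.5 and 23.9 CPM in polysomal RNA, and the groups overlapped. With both libraries labelled replicate 3 kept (control siRNA values 674, 289.9, 66.3, 122, 146 and 23.7 CPM in the order PABPC1, PABPC4, PABPN1, PAIP1, PAIP2 and PAIP2B), the log2 changes were -3.62, -0.90, -0.47, 0.55, 1.79 and -0.02, and the same 5 members were called.

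**Figure D2:**
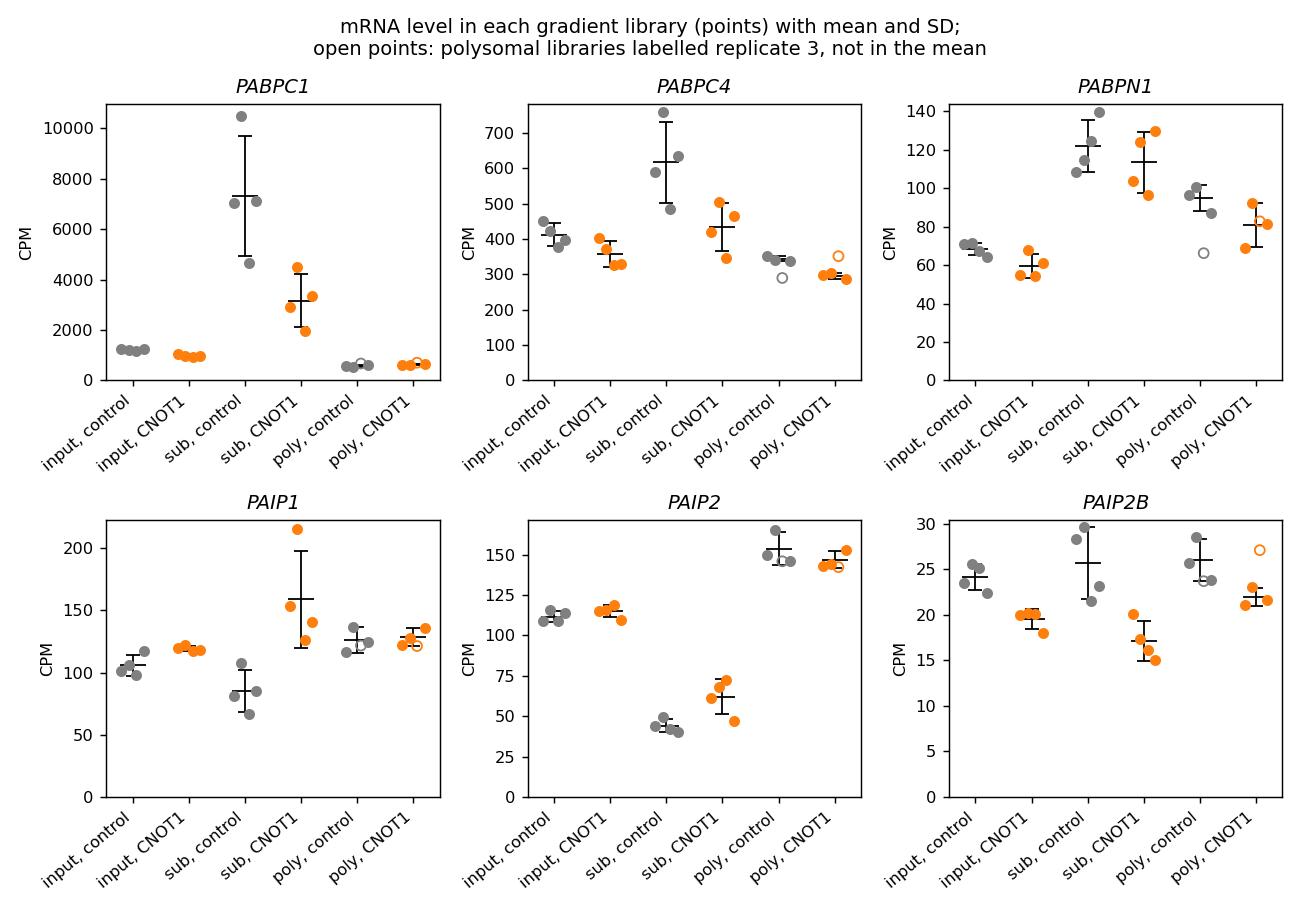
Level of each mRNA in CPM (y axis, from 0, a scale of its own per panel) in input, subpolysomal (sub) and polysomal (poly) RNA with control siRNA (grey) or CNOT1 siRNA (orange). Points are libraries, black marks are mean and SD, and open points are the polysomal libraries labelled replicate 3, which are outside the means. PABPC1 is highest in subpolysomal RNA with control siRNA (4669 to 10488 CPM), and PAIP2 is lowest there (40.1 to 49.5 CPM).

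With CNOT1 siRNA the same comparison called 5 members, where 71.9% of all genes were called. PABPC1 was 4.92-fold lower in polysomal RNA (log2 change -2.30, SE 0.22, FDR 3.16e-09), PABPC4 changed by -0.54 (SE 0.13, FDR 0.000652) and PABPN1 by -0.48 (SE 0.12, FDR 0.00101). PAIP2 was 2.38-fold higher (1.25, SE 0.10, FDR 3.23e-10), and PAIP2B was higher by 0.36 (SE 0.12, FDR 0.00876), a call lost when only the compared libraries were fitted (0.30, FDR 0.0702). PAIP1, at -0.29 (SE 0.14, FDR 0.0698), missed the threshold in this direction and passed it with RLE factors (-0.35, FDR 0.0421), with DESeq2 (-0.34, FDR 0.0412) and with all 24 libraries (-0.33, FDR 0.0340), and without CNOT1 siRNA subpolysomal replicate 3 (-0.39, FDR 0.0180) or 4 (-0.35, FDR 0.0445). With all 24 libraries the other changes were -2.27, -0.49, -0.48, 1.23 and 0.43 for PABPC1, PABPC4, PABPN1, PAIP2 and PAIP2B.

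To ask what CNOT1 siRNA did to the mRNAs in each kind of RNA, each was compared between the siRNAs. In subpolysomal RNA 5 of 6 members were called, where 42.0% of all genes were, 17.7% higher and 24.3% lower. PABPC1, PABPC4 and PAIP2B fell, and PAIP1 and PAIP2 rose.

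PABPC1 was at 2900.2, 4496, 1964 and 3334 CPM with CNOT1 siRNA. The groups nearly touched, since replicate 2 with CNOT1 siRNA was just under replicate 3 with control siRNA (4669 CPM), but within a number the level was always 0.412 to 0.469 of the control. The log2 change was -1.20 (SE 0.19, FDR 3.21e-05), and 2.02% of genes had a lower value. Same-numbered subpolysomal libraries deviated from their group means together, with correlations across genes of 0.749 to 0.869.

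PAIP1 moved in the opposite direction, to 154, 215, 126 and 141 CPM, all above the control libraries. Its log2 change was 0.90 (SE 0.13, FDR 1.45e-05), with 1.65 to 2.00 times the control level within a number, and 95.48% of genes lay below it. PAIP2 rose by 0.50 (SE 0.10, FDR 0.000345), to 61.1, 68.2, 72.2 and 47.0 CPM. Replicate 4 with CNOT1 siRNA fell inside the control range of PAIP2, although it too was above its own control.

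PABPC4 fell by 0.51 on the log2 scale (SE 0.12, FDR 0.00148), to 419.9, 504, 347 and 464 CPM, and the groups overlapped while each library was 0.663 to 0.732 of the control of its number. PAIP2B fell by 0.58 (SE 0.11, FDR 0.000218), to 20.2, 17.4, 16.2 and 15.043 CPM, all below the control libraries. PABPN1 was at 104, 124, 96.3 and 129.8 CPM, with a log2 change of -0.10 (SE 0.11, FDR 0.483).

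In polysomal RNA 0 of 6 members were called between the siRNAs by edgeR, where 31.7% of all genes were called, 17.1% higher and 14.6% lower, and 7117 had an unadjusted p below 0.05. With RLE factors the genes called split into 2251 higher and 3079 lower, against 2925 and 2501 with TMM factors. PABPC1 was at 633, 621 and 668 CPM with CNOT1 siRNA, each above its control and all above the control range, at a log2 change of 0.17 (SE 0.22, FDR 0.599). PABPC4 was at 297, 304 and 286 CPM, all below the controls, at -0.22 (SE 0.14, FDR 0.227). PABPN1 was at 69.1, 92.3 and 81.7 CPM (-0.23, SE 0.12, FDR 0.172). PAIP1 was at 122, 128 and 136 CPM and PAIP2 at 143, 144 and 153 CPM, and both overlapped their controls, with log2 changes of 0.03 (SE 0.15) and -0.07 (SE 0.11). PAIP2B was at 21.1, 23.1 and 21.7 CPM (-0.25, SE 0.13, FDR 0.140) and was called lower by DESeq2 (-0.32, FDR 0.0477). PABPC4 was called when only the compared libraries were fitted (-0.23, FDR 0.0275). The CNOT1 siRNA library labelled replicate 3 held 706, 351, 82.8, 121, 142 and 27.1 CPM of PABPC1, PABPC4, PABPN1, PAIP1, PAIP2 and PAIP2B, and with both such libraries 0 members were called in the fit of all 24.

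Input RNA gave 1 call among the 6 members, where 40.6% of all genes were called, 19.6% higher and 21.1% lower. PAIP2B fell by 0.31 on the log2 scale (SE 0.11, FDR 0.0260), from 23.5, 25.6, 25.1 and 22.5 to 20.0, 20.2, 20.1 and 18.0 CPM, and the groups did not overlap. The call was lost without control siRNA input replicate 2 (-0.28, FDR 0.0714) or 3 (-0.29, FDR 0.0644), without CNOT1 siRNA input replicate 4 (-0.27, FDR 0.0806), with no filter on low counts (-0.31, FDR 0.101) and with all 24 libraries (-0.31, FDR 0.0576).

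PABPC1 differed by as much in input RNA, at 1061, 987, 918 and 962 CPM, all below the controls, with a log2 change of -0.31. In the fit of all gradient libraries its SE was 0.19 and it did not pass (FDR 0.202). Its subpolysomal libraries varied widely and share the estimate of spread, but whether PABPC1 missed the threshold for that reason was not tested. With only the input libraries in the fit, the change was -0.29 and was called (FDR 0.000267), as were those of PABPC4 (-0.19, FDR 0.0291), PABPN1 (-0.18, FDR 0.0298) and PAIP1 (0.19, FDR 0.0125), so that 5 members passed. PABPC4 was at 404, 373, 326 and 329.6 CPM, PABPN1 at 54.7, 68.1, 54.5 and 61.1 CPM and PAIP1 at 119.6, 123, 118 and 118 CPM, against 70.8, 71.6, 67.2 and 64.4 CPM of PABPN1 and 101, 106, 98.4 and 117 CPM of PAIP1 in the controls. PAIP2 was at 115, 116, 119 and 109.7 CPM (0.04, SE 0.10, FDR 0.762).

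Whether the polysomal to subpolysomal ratio itself differed between the siRNAs was tested as an interaction. It did for 3 of the 6 members, PABPC1, PAIP1 and PAIP2, where 17.5% of all genes were called, 1709 with a higher and 1285 with a lower ratio (1165 and 1630 with RLE factors). Same-numbered subpolysomal and polysomal libraries had correlations across genes of -0.678 to 0.281 among controls, and -0.469 to -0.158 after CNOT1 siRNA. These cannot decide whether a shared number marks 1 gradient, because an mRNA moved between pools of 1 gradient would deviate in opposite directions. Ranges are therefore over all 12 combinations of the 3 polysomal and 4 subpolysomal libraries of a siRNA, without regard to number. The PABPC1 ratio was 0.0510 to 0.129 for the controls and 0.138 to 0.340 after CNOT1 siRNA, without overlap, and the log2 ratio was higher by 1.37 (SE 0.29, FDR 0.00210), with 98.56% of genes below it. The PAIP1 ratio was 1.085 to 2.05 for the controls and 0.567 to 1.077 after CNOT1 siRNA, and its log2 ratio fell by 0.87 (SE 0.20, FDR 0.00425). The PAIP2 ratios, 2.95 to 4.12 and 1.98 to 3.25, overlapped at their ends, and the log2 ratio fell by 0.57 (SE 0.15, FDR 0.0105). The PAIP2 call was lost with only the compared libraries in the fit (-0.56, FDR 0.0613).

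The ratios of the other members overlapped between the siRNAs. For PABPC4 they were 0.4465 to 0.730 and 0.568 to 0.876, and the log2 ratio differed by 0.28 (SE 0.18, FDR 0.310). For PABPN1 the log2 difference was -0.13 (SE 0.17, FDR 0.661), and for PAIP2B, at 0.803 to 1.325 and 1.048 to 1.533, it was 0.33 (SE 0.17, FDR 0.186). With all 24 libraries the differences were 1.35 for PABPC1 (FDR 0.00371), -0.88 for PAIP1 (FDR 0.00703) and -0.56 for PAIP2 (FDR 0.0246), and those of the other 3 members were not called.

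**Figure D3:**
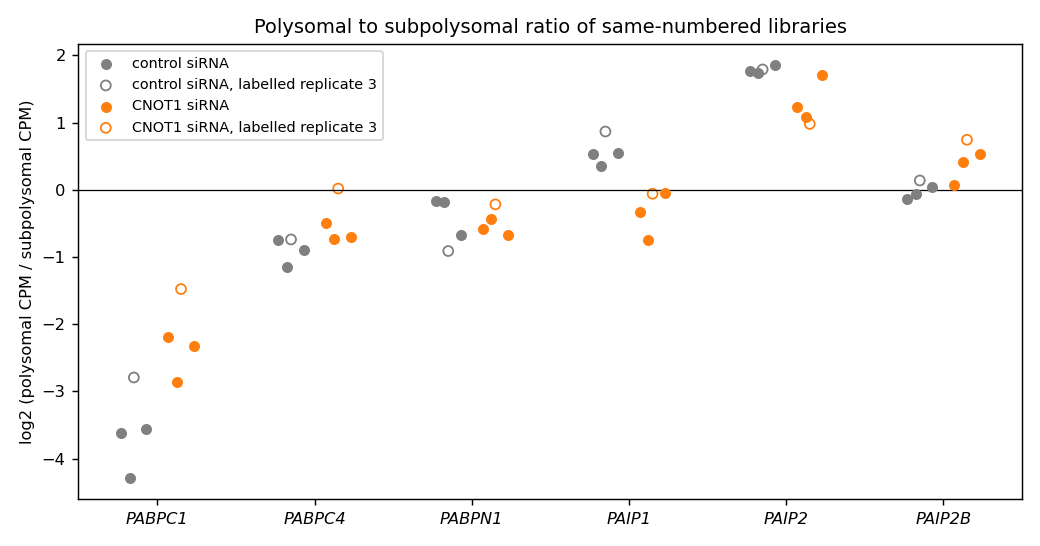
Log2 ratio of polysomal to subpolysomal CPM (y axis) for each member (x axis), with a point per pair of same-numbered libraries for control siRNA (grey) and CNOT1 siRNA (orange) and open points for the pairs with a polysomal library labelled replicate 3. The numbers pair the points for display only. The filled PABPC1 points lie at -4.29 to -3.57 with control siRNA and at -2.86 to -2.20 with CNOT1 siRNA, and its open points at -2.79 and -1.48. The filled PAIP1 points lie above 0 with control siRNA and below 0 with CNOT1 siRNA.

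Among all genes tested the members fell in different places. PABPC1 was far out in polysomal against subpolysomal RNA with control siRNA (1.8% of genes lower) and in subpolysomal RNA with CNOT1 siRNA (2.02% lower). Its place in the DDX6 IP was fixed by the choice of the set and is shown as a description. PABPC4 was at a percentile of 70.76 in the DDX6 IP, 29.33 in polysomal against subpolysomal RNA with control siRNA and 20.05 in subpolysomal RNA with CNOT1 siRNA.

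**Figure D4:**
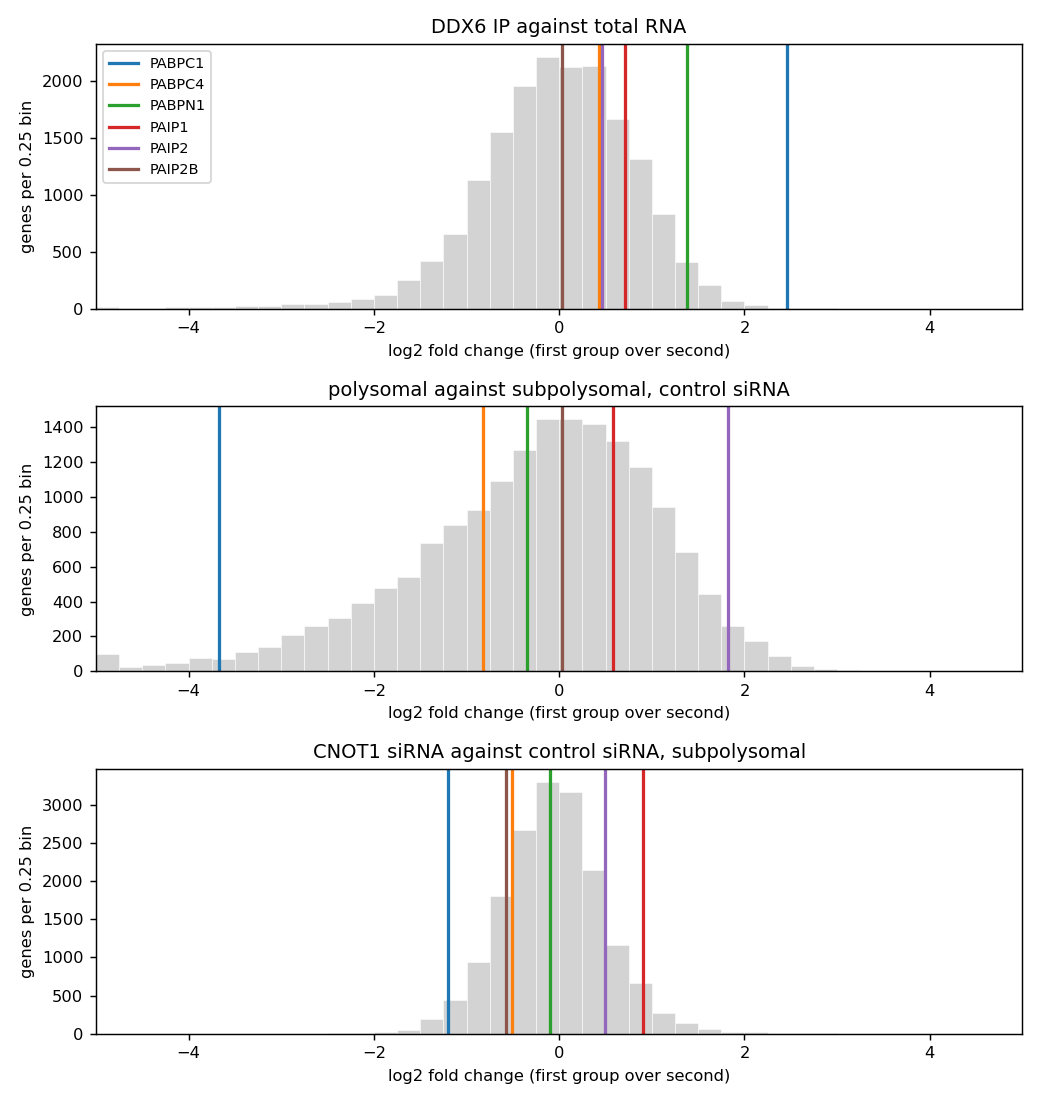
Histograms of the log2 fold change of all genes tested (x axis, bins of 0.25, end bins hold everything beyond; y axis, number of genes) in 3 contrasts, with a vertical line for each member. PABPC1 lies at 2.46, -3.67 and -1.20 from top to bottom, PAIP2 at 1.82 in the middle panel and PAIP1 at 0.90 in the bottom panel.

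In the TNRC6 experiment 0 of 6 members were called by edgeR, where 0.0% of all genes were called, 289 genes had an unadjusted p below 0.05 and DESeq2 called 6 genes higher and 2 lower. With 2 libraries per group the spread within groups was large beside most differences. PABPC1 was at 1437 and 1278 CPM with control siRNA and at 1373 and 1216 CPM with TNRC6A/B siRNA (log2 change -0.07, SE 0.18). PABPC4 was at 536 and 370.1 CPM and then at 528 and 404 CPM (0.04, SE 0.27), and PABPN1 at 53.5 and 43.2 and then 51.5 and 42.2 CPM (-0.05, SE 0.25). For these 3 the groups overlapped. PAIP1 was at 112 and 109.6 CPM with control siRNA and at 103 and 99.2 CPM with TNRC6A/B siRNA, and PAIP2 at 80.7 and 106 against 71.5 and 80.1 CPM. Their log2 changes were -0.13 (SE 0.19) and -0.30 (SE 0.24). PAIP2B was at 21.2 and 27.3 and then 21.1 and 21.2 CPM (-0.20, SE 0.26). All 6 had an FDR of 1.00.

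Genes that work with poly(A)-binding proteins were followed in the same fits as 3 lists. The partners of PABPC (21 genes that bind cytoplasmic poly(A)-binding protein, all tested) were split in the IPs, with 4 higher and 7 lower in the eIF4A1 IP, 6 and 5 in the eIF4A2 IP and 8 and 4 in the DDX6 IP. The shares of all genes called higher and lower were 26.1% and 26.5% in the first of these, 24.5% and 25.8% in the eIF4A2 IP and 22.7% and 23.3% in the DDX6 IP. The partners had medians of 0.00, 0.07 and 0.22 on the log2 scale, where all genes had 0.04, 0.01 and 0.01. The largest rise was that of PAN3, a subunit of the PAN2-PAN3 deadenylase, in the eIF4A1 IP (0.79) and of EIF4G1, the scaffold of the cap-binding complex, in the eIF4A2 and DDX6 IPs (0.96 and 1.53). The largest called falls were those of HELZ in the eIF4A1 and DDX6 IPs (-0.81 and -0.58) and of EIF4B, a cofactor of eIF4A, in the eIF4A2 IP (-0.84). ATXN2 was the 1 partner called between the DDX6 and eIF4A1 IPs (1.36, FDR 0.0198). In polysomal against subpolysomal RNA with control siRNA 8 partners were higher and 10 lower, where 33.7% and 38.4% of all genes were. The largest rise there was that of TNRC6B (1.33) and the largest fall that of EIF4B (-1.29). EIF4B also fell with CNOT1 siRNA in subpolysomal RNA (-1.33, edgeR FDR 7.89e-10). Among the partners, the polysomal to subpolysomal ratio with CNOT1 siRNA rose most for EIF4B (1.23, FDR 7.59e-06) and fell most for TNRC6B (-0.42, FDR 0.0344).

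With CNOT1 siRNA 11 of the 21 partners rose and 5 fell in subpolysomal RNA, 12 and 2 in polysomal RNA, and 9 and 4 in input RNA, where 17.7% of all genes rose and 24.3% fell, 17.1% and 14.6%, and 19.6% and 21.1%, in the same order. The medians were 0.37, 0.29 and 0.27, where all genes had -0.06, 0.00 and -0.03. TOB2, which binds PABPC1 and Ccr4-Not, rose most in input (1.04) and polysomal RNA (1.20), and TNRC6B rose most in subpolysomal RNA (0.71). TNRC6C fell in input (-0.51) and polysomal RNA (-0.48).

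The nuclear polyadenylation list, 21 genes of the cleavage and polyadenylation machinery and its partners, was mostly called lower in the IPs, where PABPN1 was higher. In the eIF4A1 IP 1 was higher and 15 lower (median -0.75), in the eIF4A2 IP 2 and 13 (median -0.52) and in the DDX6 IP 1 and 13 (median -0.71). Of all genes 26.1% were higher and 26.5% lower (median 0.04), 24.5% and 25.8% (0.01), and 22.7% and 23.3% (0.01), in the same order. CPSF4, a subunit of the cleavage and polyadenylation specificity factor, had the largest rise in each IP (0.78, 0.72 and 0.58), and the largest falls were those of CPSF3, the endonuclease of that complex, in the eIF4A1 IP (-1.67), of CSTF2 in the eIF4A2 IP (-1.71) and of SKIV2L2 in the DDX6 IP (-1.35). With control siRNA 12 of the list were higher in polysomal RNA and 5 lower, where 33.7% and 38.4% of all genes were, led by NUDT21 (1.499) and PCF11 (-1.12). With CNOT1 siRNA 5 of the list rose and 0 fell in input RNA, 3 and 6 in subpolysomal RNA, and 7 and 0 in polysomal RNA. Of all genes 19.6% rose and 21.1% fell, 17.7% and 24.3%, and 17.1% and 14.6%, in the same order. FIP1L1 rose in input (0.59) and polysomal RNA (0.75).

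Of the 12 deadenylase and Ccr4-Not genes without CNOT1, 3 were higher and 6 lower in each IP, with medians of -0.40, -0.41 and -0.38 in the eIF4A1, eIF4A2 and DDX6 IPs, beside the shares and medians of all genes given with the partners. With CNOT1 siRNA 6 rose and 2 fell in input RNA (median 0.29, beside 19.6% and 21.1% and a median of -0.03 for all genes), where CNOT6L rose by 0.72 and CNOT6, another catalytic subunit, fell by 0.76 on the log2 scale. In subpolysomal RNA 4 rose and 0 fell (median 0.18, beside 17.7% and 24.3% and -0.06 for all genes), and in polysomal RNA 6 rose and 2 fell (median 0.31, beside 17.1% and 14.6% and 0.00 for all genes). In the TNRC6 comparison 0 genes of these 3 lists were called, the targets TNRC6A and TNRC6B included.

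The likeness of other genes to each member was taken as the correlation of log2 levels over the 12 group means, centred within each experiment, among 8827 genes of at least 10 CPM in each experiment. The points share libraries and totals, so these values are descriptions. Nearest to PABPC1 were DEAF1 (r = 0.970), PPARG (0.969), AC013394.2 (0.968), ETAA1 (0.963) and ELK3 (0.962). DEAF1 had a log2 difference of 1.78 in the DDX6 IP and of -3.37 in polysomal against subpolysomal RNA with control siRNA, beside 2.46 and -3.67 for PABPC1. ETAA1 had only 0.54 and -0.73 in the same contrasts, since the correlation takes no account of size. In subpolysomal RNA with CNOT1 siRNA DEAF1 was at -0.45, beside -1.20 for PABPC1. The nearest genes were KIAA1024 (0.975) and MAN2C1 (0.969) for PABPC4, UCK1 (0.989) and CMTM7 (0.982) for PABPN1, SIRPA (0.959) and CABLES1 (0.956) for PAIP1, OSTF1 (0.988) and PPIC (0.987) for PAIP2, and TRIM68 (0.938) and GSTA4 (0.916) for PAIP2B. Among the members themselves PABPC1 was most like PABPN1 (0.715) and PABPC4 (0.652) and least like PAIP2 (-0.725), the inhibitor with the opposite order on the gradient.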

How the data were processed

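The deposited files hold unnormalised counts per gene symbol and library, which the authors made from poly(A)-selected, strand-specific libraries by alignment to hg19 with TopHat2 and counting with htseq-count, and the submitters' processing notes name bcl2fastq 2.0. A further deposited table of the authors' own tests of each IP against total RNA (fold changes, test statistics, p-values and FDR) was not used. Counts were analysed with edgeR 4.0.16 (R 4.3.3, limma 3.58.1), using filterByExpr, TMM factors and quasi-likelihood F-tests, in 1 fit for each of 3 experiments. The 24 gradient libraries entered without both polysomal libraries labelled replicate 3, whose CNOT1 counts went against their labels, leaving 22. All tests are two-sided, and the call was an FDR (Benjamini-Hochberg) below 0.05 across the genes of a fit, 17474 (RIP), 17115 (gradient) and 14064 (TNRC6). CPM were counts scaled to a TMM-adjusted total of 1000000 over all libraries of an experiment. Positive log2 changes are higher in the group named first.

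The labels do not say whether replicates were separate cultures, so p-values measure only the spread between these libraries. Same-numbered RIP libraries of different groups deviated together (correlations across genes of 0.173 to 0.884), as did same-numbered control and CNOT1 siRNA libraries within input (0.127 to 0.584), subpolysomal (0.749 to 0.869) and polysomal RNA (0.437 to 0.762). The numbers were taken as pairs there only for ratios within a number and for the replicate block. The main fits have no replicate term, so their FDRs ignore this pairing, and some calls between IPs differ with the block. None of the 40 libraries is an IgG control. Each IP is therefore set against total RNA or another IP, and background binding to the beads or antibody was not measured.

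The members and the 3 lists were chosen with earlier results of these data known. The genes named are the members, siRNA targets, rows sharing sequence with a member, the list genes with the largest or smallest called change of their list, markers, and the genes most like a member (5 for PABPC1 and 2 for each other). Gene positions, UTRs and coding sequences were read from GENCODE release 44 on GRCh37, with 1 canonical transcript per gene. Alternatives were RLE factors, no filter, a replicate block, DESeq2 1.42.0, only the compared libraries, all 24 gradient libraries and leaving out each library. Reads carry no molecular identifiers, so counting precision is described only by depth, 26883978 to 46018900 counts per library in the RIP, 15914206 to 40725601 counts in the gradient and 15353317 to 28783532 in the TNRC6 experiment. The fits were tested on simulated counts.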

Additional observations from a re-analysis of the deposited data

Results flagged for a closer look

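In input RNA with CNOT1 siRNA, PAIP2B in replicate 4 (17.978 CPM) lay apart from the other 3 libraries (20.02, 20.05 and 20.19 CPM) by Dixon's test, 1 of 36 groups of 4 libraries tested, where chance gives about 1 in 20. The effect of fraction differed between the siRNAs for PABPC1 (interaction 1.371 on the log2 scale, edgeR FDR 0.00210), PAIP1 (-0.8743, FDR 0.00425) and PAIP2 (-0.565, FDR 0.0105). The PABPC1 and PAIP1 calls held in every alternative run, and that of PAIP2 in all but 1, with only the compared libraries (FDR 0.0613).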

How the results depend on the processing

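Values that did not pass their test and lay near 0 changed sign under some settings. These were PAIP2B in the eIF4A1 IP against total RNA (-0.01081 with RLE factors, -0.0003589 with the replicate block and -0.01072 with DESeq2), PAIP2B in polysomal against subpolysomal RNA with control siRNA (-0.0154 with all 24 libraries and -0.007086 with only the compared libraries), PAIP1 in polysomal RNA with CNOT1 siRNA (-0.05022 with RLE factors, -0.01967 with no filter and -0.0503 with DESeq2) and PABPN1 with TNRC6A/B siRNA (0.01122 with no filter). Leaving out 1 library at a time gave -0.06893 to 0.2955 for PAIP2 and -0.1351 to 0.1052 for PAIP2B in the eIF4A1 IP, -0.3334 to 0.1119 for PAIP1 between the eIF4A2 and eIF4A1 IPs, and -0.3373 to 0.1083 for PAIP1 between the eIF4A2 and DDX6 IPs. Between the DDX6 and eIF4A1 IPs it gave -0.06792 to 0.2211 for PABPN1, -0.1272 to 0.1736 for PAIP1 and -0.06764 to 0.1748 for PAIP2B. On gradients it gave -0.04567 to 0.1078 for PAIP2B in polysomal against subpolysomal RNA with control siRNA and -0.06474 to 0.09397 for PAIP1 in polysomal RNA with CNOT1 siRNA. With TNRC6A/B siRNA it gave -0.1593 to 0.02334 for PABPC1, -0.1657 to 0.3234 for PABPC4, -0.1977 to 0.1099 for PABPN1 and -0.3777 to 0.04711 for PAIP2B.

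The number of members called moved as follows. The replicate block, which pairs libraries by number, gave 2 members between the eIF4A2 and eIF4A1 IPs, 4 between the eIF4A2 and DDX6 IPs and 1 between the DDX6 and eIF4A1 IPs, where it was also 1 with DESeq2. It added PAIP2B in the eIF4A2 IP and PAIP1 in polysomal against subpolysomal RNA with CNOT1 siRNA (-0.3363, edgeR FDR 0.0118), and changed no other call. Whether the numbers pair the polysomal and subpolysomal libraries was not settled. Only the compared libraries in the fit gave 1 member between the eIF4A2 and DDX6 IPs, 5 in input and 1 in polysomal RNA with CNOT1 siRNA, and DESeq2 gave 1 in polysomal RNA. In input it was 0 with no filter and 0 with all 24 libraries. Without single libraries it was 1 to 2 between the eIF4A2 and DDX6 IPs and 0 to 1 in input. The causes were not tested, apart from the number of libraries and genes that a setting itself changes. With TNRC6A/B siRNA, 0 genes passed, or 520 higher and 243 lower with the replicate block, for 0 of the 6 members, but 2 pairs cannot show that the numbers pair the libraries. It was 20 and 3 with no filter, and leaving out 1 library left a group with a lone library that was assumed to vary like the other group. Over all genes, the eIF4A2 and eIF4A1 IPs gave 170 higher and 15 lower calls, against 541 and 159 with DESeq2, 1245 and 1521 with the block, 459 and 538 with no filter and 24 and 0 with only the compared libraries. The DDX6 and eIF4A1 IPs gave 14 and 2, against 362 and 177, 1062 and 668, 130 and 102, and 0 and 0 in the same order, and the eIF4A2 and DDX6 IPs 1716 and 1969, against 3232 and 3842 with the block. With all 24 libraries 0 genes passed edgeR's test in polysomal RNA with CNOT1 siRNA, where 2925 and 2501 had (1123 had an unadjusted p below 0.05), and the interaction gave 547 and 402 instead of 1709 and 1285 (919 and 667 with only the compared libraries, which also gave 1986 and 2408 instead of 3030 and 4166 in subpolysomal RNA). RLE factors moved the mean of PAIP2B with TNRC6A/B siRNA from 21.1 to 21.409 CPM. Of the member log2 changes, 388 under other settings and 497 without single libraries kept their direction and their side of the threshold. PAIP2B, at 15.043 to 34.7 CPM, is the least deeply counted member.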
